A study of Homo sapiens with 6 samples.

Results

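The 48 genes described here encode proteins of glucose breakdown. They are 2 glucose transporters, 15 enzymes of glycolysis, 3 PFKFB enzymes and 2 subunits of lactate dehydrogenase. Another 7 act at the entry of pyruvate into the mitochondrion. A further 14 are grouped under the tricarboxylic acid (TCA) cycle, and 5 belong to the pentose phosphate pathway. The 48 genes were picked from a table by gene symbol, and the list was drawn up with earlier results of these data known. All 48 were found among the 16798 coding genes of the table, and all 48 were among the 12368 genes with enough counts to be tested.

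Their mRNA was measured by bulk RNA sequencing in COV434, a human immortalized granulosa cell line, in 3 control samples and in 3 samples treated with 15 µM 4HC for 24 h. 4HC is the active form of cyclophosphamide (CTX), a chemotherapy drug that damages DNA and is toxic to the ovary, and the treated samples carried CTX in their titles. All 6 samples came from the same line grown in DMEM with serum, and no vehicle was named for the controls. The labels gave the same treatment text for all 6 samples, controls included, so the groups rest on the titles. The comparison asks how the mRNA of these enzymes differed between treated and untreated cells.

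The total estimated count was between 16133786 and 16702316 per sample. Of 16 granulosa markers, 14 were in the table and 4 averaged at least 1 TPM (a length-scaled unit, with the same sum in every sample), namely WT1, HSD17B1, AMH and INHA, and their summed level was 159 to 167 TPM in control and 132 to 138 TPM in 4HC. WT1 made up most of it, with 131.3 to 134.7 TPM in control and 103.3 to 109.1 TPM in 4HC, and its part in the results was not tested. The defining markers FOXL2, FSHR and CYP19A1 were at or near 0, with FOXL2 at 0.11 TPM in a single sample and at 0 in the others. These marker levels do not by themselves bear out the granulosa name given to the line. No immune or endothelial marker averaged 1 TPM, the 6 stromal markers summed to 136 to 145 TPM in control and 137 to 138 TPM in 4HC, and the 6 epithelial markers to 6.36 to 8.57 and 7.72 to 8.16 TPM. The labels do not say whether replicates came from separate cultures, so the p-values measure the spread between these samples, which may be technical. Fewer cells of a type and less RNA per cell cannot be told apart in bulk samples.

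Glycolysis splits glucose into pyruvate in the cytosol, with commitment set at hexokinase and phosphofructokinase. Pyruvate is then either reduced to lactate by lactate dehydrogenase or taken into the mitochondrion, where the pyruvate dehydrogenase complex turns it into acetyl-CoA for the TCA cycle and the PDK kinases hold that complex in check. The pentose phosphate pathway branches off at glucose 6-phosphate and yields NADPH and ribose for nucleotides. Granulosa cells are known for supplying the oocyte with pyruvate and lactate, which was not examined in this line.

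The changes after 4HC were all below 2-fold, and the 5 largest among genes that passed were in HK2, PDK3, SLC2A1, IDH1 and IDH2. HK2, the inducible hexokinase, fell by 29.9%, and SLC2A1, the glucose transporter GLUT1, fell by 22.1%. PDK3, a kinase that inhibits pyruvate dehydrogenase, rose by 29.3%. Among isocitrate dehydrogenases, the cytosolic IDH1 fell by 20.9% and the mitochondrial IDH2 rose by 22.1%.

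Of the 48 genes, 4 were higher in 4HC (8.33%) and 16 were lower (33.3%) at an adjusted p under 0.05 by the edgeR quasi-likelihood test. Over all 12368 genes tested, 19.2% were higher and 17.1% were lower by the same rule, 36.4% in all. The log2 fold changes of the 48 ran from -0.51 to 0.37 with a median of -0.04, beside a median of 0.005 over all genes tested, and their median absolute change was 0.092, beside 0.128. The counts scaled to library size (CPM) did not overlap between the groups for 7 members that were higher in 4HC and 16 that were lower, beside 23.4% and 21.9% of all genes tested. No member changed at least 2-fold with an unadjusted p under 0.05, a rule met by 1.15% of all genes tested. The split between directions depended on the scaling: with library size in place of TMM normalization, 9 members were higher and 11 lower, so that 45% of the called members were higher in place of 20.0%.

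**Figure D1:**
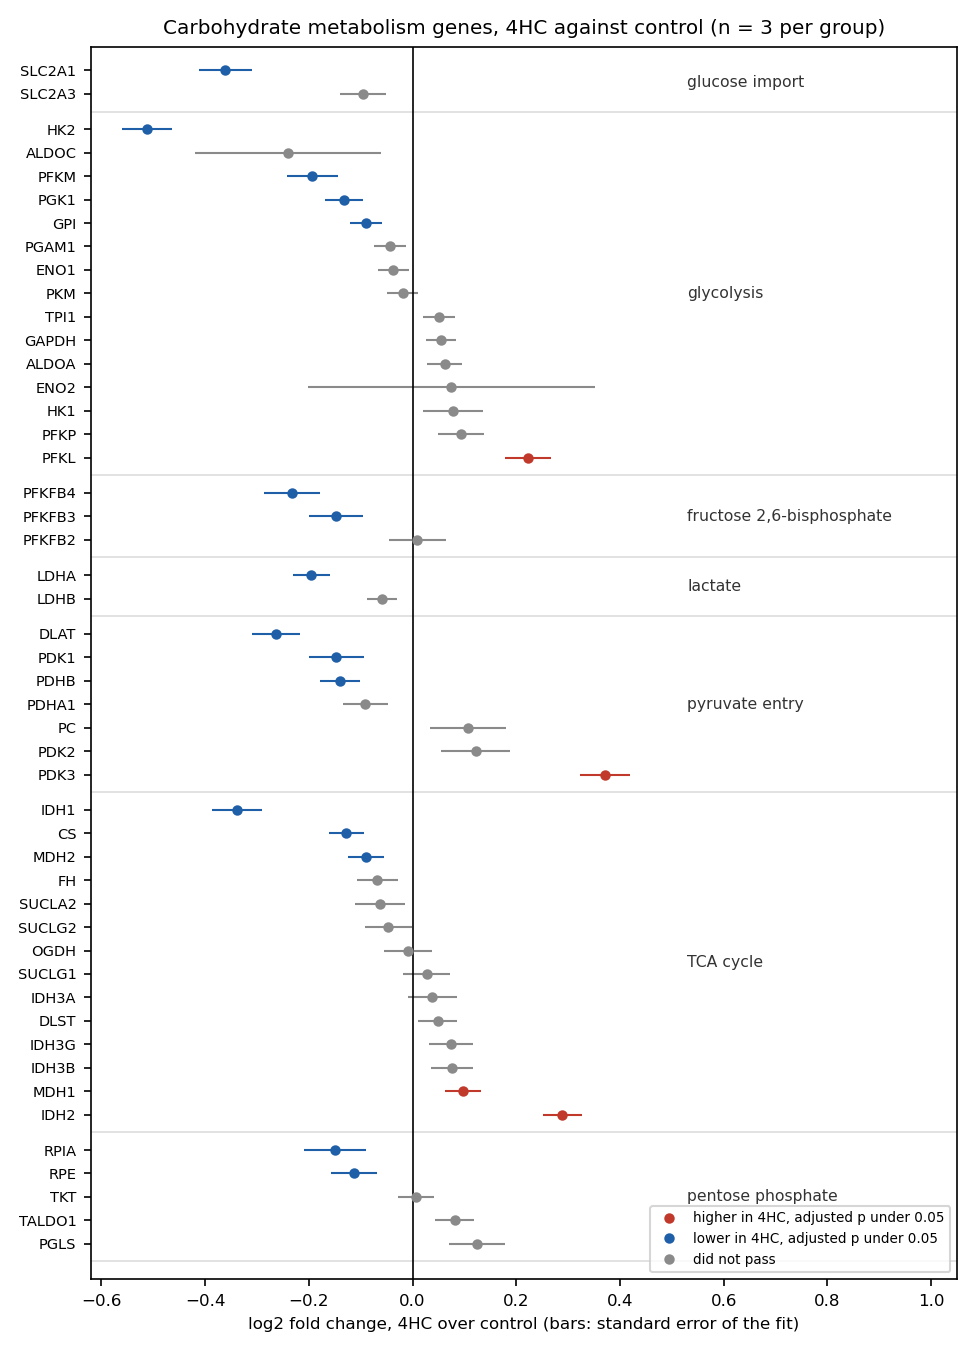
Log2 fold change of each of the 48 genes (horizontal axis, 4HC over control, n = 3 samples per group), ordered by pathway and marked by whether the edgeR test passed, with bars for the standard error. HK2 lies furthest left at -0.51 and PDK3 furthest right at 0.37, and 28 genes did not pass.

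Levels were compared between genes on the TPM scale, which accounts for transcript length. GAPDH was the most abundant member, with a mean of 6966 TPM in control and 7190 TPM in 4HC, followed by ENO1 with 2241 and 2172 TPM, LDHB with 1778 and 1694 TPM and TPI1 with 1687 and 1736 TPM. The least abundant was ENO2, the neuronal enolase, with 1.15 and 1.20 TPM. Together the 48 genes made up 2.03% ± 0.041 (SD, n = 3) of all TPM in control and 2.02% ± 0.04 in 4HC, a difference smaller than the spread between replicates. The glycolytic enzymes accounted for 1.46% ± 0.051 and 1.48% ± 0.032 of it. The abundant enzymes of the lower part of glycolysis carried most of the pathway's mRNA. Of the 20 genes that passed the test, LDHA had the highest level, 963.7 TPM in control and 836.3 TPM in 4HC.

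**Figure D2:**
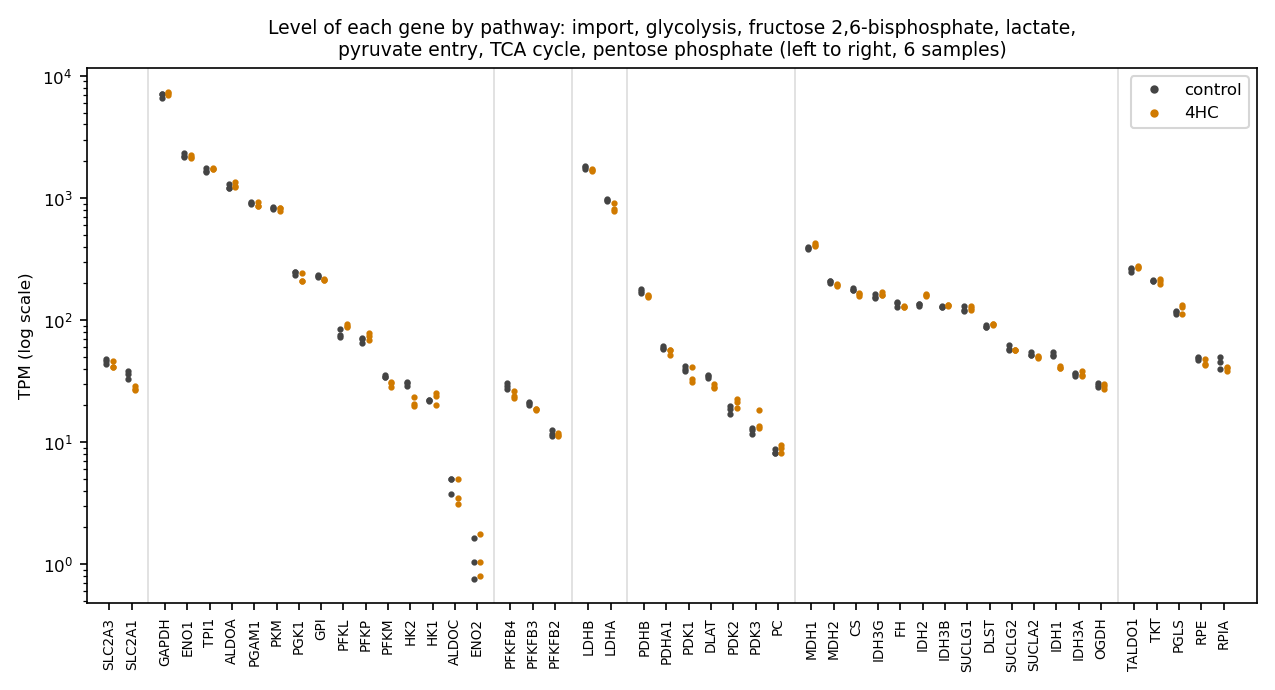
Level of each of the 48 genes in all 6 samples in TPM (vertical axis, log scale), grouped by pathway with control and 4HC points side by side. The points of the 2 groups nearly coincide for GAPDH at about 6618 to 7333 TPM, while those of HK2, SLC2A1, IDH1 and DLAT separate.

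Glucose enters the cell through facilitated transporters, of which SLC2A1 (GLUT1, chromosome 1, 42924460 to 42958868, GRCh38) serves basal uptake and SLC2A3 (GLUT3) binds glucose with high affinity. SLC2A1 had 65.21, 76.5 and 71.13 CPM in the controls and 53.23, 54.7 and 57.84 CPM in the 4HC samples. The groups did not overlap, and the log2 fold change was -0.36 (SE 0.0516, adjusted p = 1.11e-07). SLC2A3 had 104.6, 100.4 and 108.4 CPM in control and 93.79, 94.04 and 105.5 CPM in 4HC, so that the treated replicate 3 lay within the control range, and it did not pass (log2 fold change -0.095, adjusted p = 0.0893). Reads of SLC2A3 may partly belong to SLC2A14, a close copy, so its count is less certain. Of the pair's summed TPM, SLC2A1 held 43.7% ± 2.6 in control and 39.3% ± 0.71 in 4HC.

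Of the 15 glycolytic enzymes, 1 was higher (6.67%), 4 were lower (26.7%) and 10 did not pass, beside 19.2% higher and 17.1% lower among all genes tested. The median log2 fold change was -0.019. The hexokinases trap glucose by phosphorylating it. HK2 (chromosome 2, 74831351 to 74893359, GRCh38) had 97.5, 106.8 and 103.8 CPM in control and 68.87, 67.34 and 79.88 CPM in 4HC. All treated samples lay below all controls, with a log2 fold change of -0.51 (SE 0.0488, adjusted p = 1.62e-12), the largest among the 48 members. HK1, the housekeeping hexokinase bound to mitochondria, had 45.31 to 47.27 CPM in control and 43.35 to 53.31 CPM in 4HC and did not pass (0.078, adjusted p = 0.301). HK2 therefore made up 57.9% ± 1.3 of the pair's TPM in control and 47.9% ± 1.7 in 4HC, and HK1 was the more abundant of the pair in all 3 treated samples, with shares of 54.0%, 50.7% and 51.5%.

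The 3 phosphofructokinase subunits, named for liver, muscle and platelet, form the tetramer that catalyses the committed step. PFKL had 126.5, 143.6 and 120.2 CPM in control and 146.3, 150.8 and 158.0 CPM in 4HC. Its groups did not overlap, although control replicate 2 lay near the treated samples, and it rose with a log2 fold change of 0.22 (SE 0.0441, adjusted p = 5.83e-05). PFKM had 60.15, 60.5 and 62.08 CPM in control and 54.08, 50.94 and 54.84 CPM in 4HC. It fell in every treated sample relative to every control (log2 fold change -0.19, SE 0.0493, adjusted p = 0.0015), while PFKP did not pass (0.093, adjusted p = 0.0975). The liver subunit went from 42.7% ± 1.6 to 46.5% ± 1.2 of the family's TPM and the muscle subunit from 19.1% ± 1.4 to 15.6% ± 0.4, while the platelet subunit held 38.2% ± 0.79 and 37.9% ± 0.94.

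The changes of the other glycolytic enzymes that passed were smaller. PGK1, which makes ATP from bisphosphoglycerate, had 712.3, 716.5 and 673.2 CPM in control and 601.4, 611.6 and 705.7 CPM in 4HC. The treated replicate 3 lay inside the control range, and the log2 fold change of -0.13 (SE 0.0373, adjusted p = 0.00412) lost its call in 5 of 14 alternative analyses. GPI, which turns glucose 6-phosphate into fructose 6-phosphate, fell by 6.06% (adjusted p = 0.0208), with 445.2 to 464.3 CPM in control and 422.8 to 428.3 CPM in 4HC. GAPDH, widely used as a reference gene, had 4555, 4589 and 4193 CPM in control and 4604, 4544 and 4707 CPM in 4HC. Its groups overlapped and it did not pass (log2 fold change 0.055, SE 0.0297, adjusted p = 0.148). ALDOA, TPI1, PGAM1, ENO1 and PKM did not pass either, with log2 fold changes between -0.044 and 0.062. ALDOC (log2 fold change -0.24, SE 0.179) and ENO2 (0.075, SE 0.277) did not pass either, and their levels of 2.652 to 4.285 CPM and 0.9653 to 2.265 CPM gave the widest errors of the 48. Several of these genes, among them GAPDH, PGK1, LDHA, ENO1 and PGAM1, have processed pseudogenes or near-identical copies that can share their reads.

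**Figure D3:**
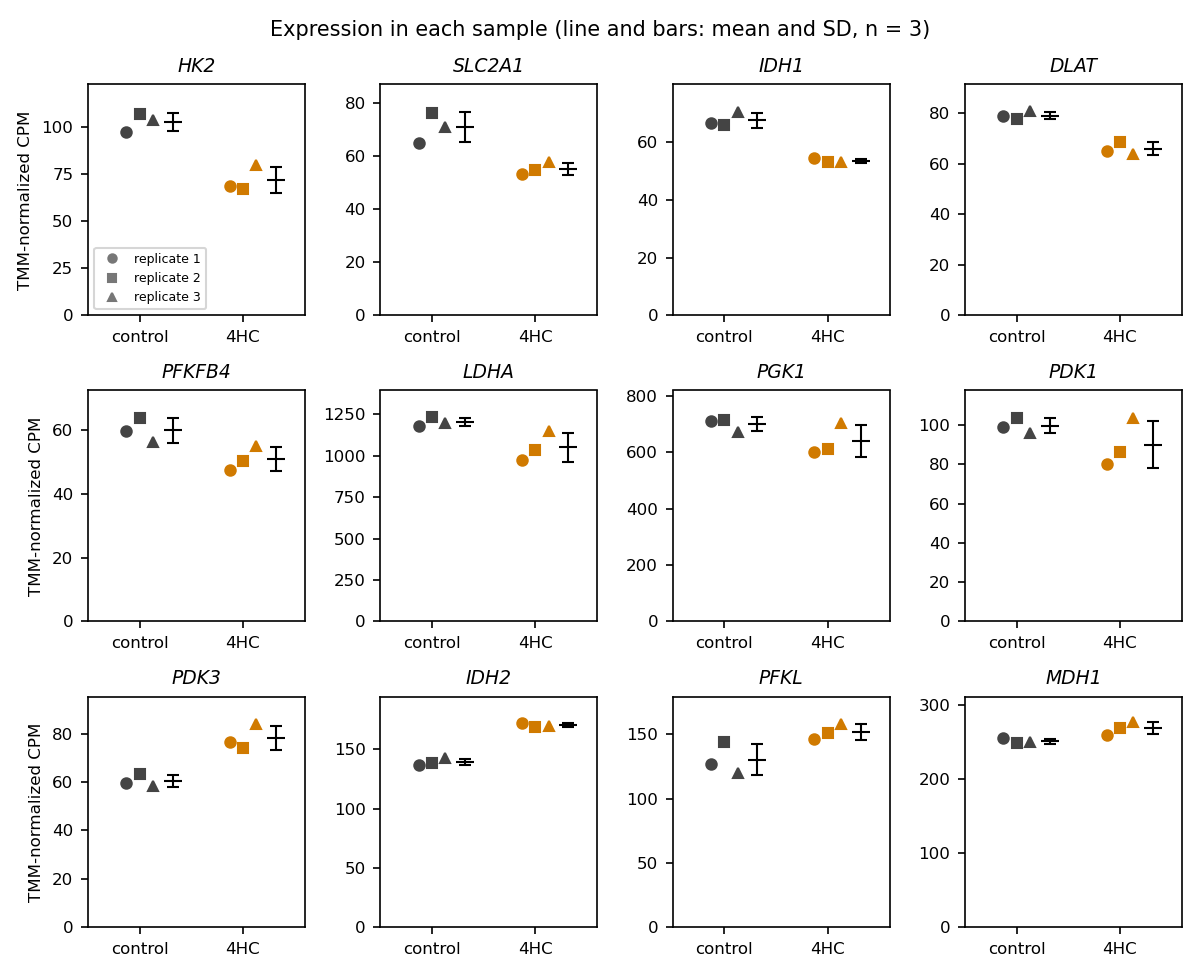
CPM after TMM normalization (vertical axes, from 0) in each of the 6 samples for 12 genes, with replicate numbers as symbols and the mean and SD of each group beside them. HK2, SLC2A1, IDH1 and DLAT separate by group, and in LDHA, PGK1 and PDK1 the treated replicate 3 lies closest to or among the controls.

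PKM, the last enzyme of glycolysis, is spliced into isoforms that differ in a mutually exclusive exon: exon 9 gives PKM1, typical of muscle and brain, and exon 10 gives PKM2, typical of growing cells. Both exons have 167 bases. They are printed here, with the 62 positions at which they differ in capitals, because the reads that tell the isoforms apart come from these exons. They lie on the minus strand of chromosome 15 in GRCh38, taken from GENCODE 29, exon 9 at chr15:72203022-72203188 and exon 10 at chr15:72202454-72202620, and are 62.9% identical.
PKM exon 9: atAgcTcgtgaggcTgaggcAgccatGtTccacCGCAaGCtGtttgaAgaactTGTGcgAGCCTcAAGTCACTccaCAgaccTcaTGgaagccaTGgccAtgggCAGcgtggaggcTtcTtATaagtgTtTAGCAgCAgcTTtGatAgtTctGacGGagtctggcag
PKM exon 10: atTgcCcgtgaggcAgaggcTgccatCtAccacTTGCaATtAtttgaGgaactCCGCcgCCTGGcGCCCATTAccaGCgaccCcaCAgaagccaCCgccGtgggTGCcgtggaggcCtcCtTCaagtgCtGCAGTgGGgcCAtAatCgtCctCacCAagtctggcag

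Transcripts with exon 10 took 92.8%, 93.1% and 93.1% of the estimated counts of PKM in the controls and 94.0%, 93.1% and 93.6% in 4HC, summed over 3 transcripts. Those with exon 9 took 5.47% ± 0.39 in control and 4.98% ± 0.1 in 4HC over 5 transcripts, and 5 further transcripts whose structure could not be read from GENCODE 29 took 1.53% and 1.45%. PKM in these cells was thus mostly of the exon 10 form in every sample. The exon 10 share differed by 0.569 percentage points (exact permutation test, two-sided, p = 0.1, the smallest p that 3 samples against 3 allow). PKM as a whole had 1054 to 1103 CPM in control and 1031 to 1071 CPM in 4HC (log2 fold change -0.019, adjusted p = 0.665).

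The PFKFB enzymes make and break fructose bisphosphate in its regulatory form, the strongest activator of phosphofructokinase. PFKFB4 had 59.84, 63.82 and 56.11 CPM in control and 47.62, 50.38 and 54.97 CPM in 4HC. The groups did not overlap, though the treated replicate 3 came close to the lowest control, and the log2 fold change was -0.23 (SE 0.0539, adjusted p = 4.71e-04). PFKFB3, the form with the highest kinase activity, had 50.29, 49.48 and 49.95 CPM in control and 45.87, 43.6 and 45.6 CPM in 4HC. It fell by 9.78% (SE of the log2 fold change 0.0518, adjusted p = 0.0202), and this call was lost in 4 of 14 alternative analyses: with DESeq2 (adjusted p = 0.0656) and without control replicate 1, control replicate 3 or 4HC replicate 2 (adjusted p = 0.0565, 0.0534 and 0.0992). PFKFB2 did not pass, with 40.56 to 44.81 CPM in control and 41.19 to 43.46 CPM in 4HC (log2 fold change 0.009, adjusted p = 0.92).

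Lactate dehydrogenase is a tetramer of LDHA, which favours the reduction of pyruvate, and LDHB, which favours the oxidation of lactate. LDHA had 1179, 1231 and 1200 CPM in control and 972.4, 1034 and 1147 CPM in 4HC. All treated samples lay below all controls, with a log2 fold change of -0.195 (SE 0.0352, adjusted p = 1.17e-05). LDHB was the more abundant per length and had 1152, 1122 and 1187 CPM in control and 1111, 1094 and 1116 CPM in 4HC. Its groups did not overlap either, though by a narrow margin, and it did not pass (log2 fold change -0.059, SE 0.0297, adjusted p = 0.113). LDHA held 35.2% ± 1.0 of the pair's TPM in control and 33.0% ± 1.8 in 4HC, with overlapping groups. Together both subunits took 0.274% ± 0.0061 of all TPM in control and 0.253% ± 0.0079 in 4HC.

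Pyruvate enters the mitochondrial pathways through the pyruvate dehydrogenase complex or through pyruvate carboxylase (PC). Of the 7 genes at this step, 1 was higher (14.3%) and 3 were lower (42.9%), beside 19.2% and 17.1% of all genes tested. DLAT (chromosome 11, 112025408 to 112064404, GRCh38), the acetyltransferase core of the complex, had 78.95, 77.67 and 80.72 CPM in control and 65.18, 68.82 and 63.84 CPM in 4HC. The groups lay well apart, with a log2 fold change of -0.26 (SE 0.0459, adjusted p = 6.78e-06). PDHB, which forms the decarboxylating subunit with PDHA1, had 134.5, 131.3 and 138.3 CPM in control and 119.3, 122.9 and 124.7 CPM in 4HC. It fell in every treated sample relative to every control (log2 fold change -0.14, SE 0.0391, adjusted p = 0.00373). PDHA1 did not pass, with 90.38 to 93.98 CPM in control and 83 to 88.96 CPM in 4HC (log2 fold change -0.091, adjusted p = 0.0923).

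The kinases that switch the complex off did not move together. PDK3 (chromosome X, 24448139 to 24550466, GRCh38) had 59.78, 63.15 and 58.46 CPM in control and 76.71, 74.06 and 83.8 CPM in 4HC. All treated samples lay above all controls, with a log2 fold change of 0.37 (SE 0.0489, adjusted p = 1.57e-08). With limma on log2(TPM + 1), PDK3 did not pass (0.252, adjusted p = 0.0798). PDK1 had 99.23, 103.7 and 95.99 CPM in control and 80.03, 86.46 and 103.4 CPM in 4HC. The treated replicate 3 lay inside the control range, and the log2 fold change of -0.15 (SE 0.0524, adjusted p = 0.023) lost its call in 8 of 14 alternative analyses. PDK2 did not pass (0.122, adjusted p = 0.152), and neither did PC (0.107, adjusted p = 0.258). Within the 3 kinases, the TPM share of PDK1 went from 56.3% ± 1.2 to 49.0% ± 3.1 and that of PDK3 from 17.5% ± 0.72 to 21.1% ± 2.0, each with no overlap between the groups.

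In the TCA cycle group, 2 of 14 genes were higher (14.3%), 3 were lower (21.4%) and 9 did not pass, beside 19.2% higher and 17.1% lower among all genes tested. The median log2 fold change was 0.01. The higher genes were IDH2 and MDH1, and the lower ones were IDH1, CS and MDH2. The group includes IDH1 and MDH1, which are cytosolic, and IDH2, which uses NADP. Its counts are therefore not those of the cycle proper. The isocitrate dehydrogenases that use NADP, IDH1 in the cytosol and IDH2 in the mitochondrion, moved in opposite directions. IDH1 (chromosome 2, 208236227 to 208255113, GRCh38) had 66.44, 65.79 and 70.47 CPM in control and 54.32, 52.97 and 53.01 CPM in 4HC. The 3 treated values lay close to each other and below every control, with a log2 fold change of -0.34 (SE 0.0485, adjusted p = 1.12e-07). IDH2 (chromosome 15, 90083045 to 90102468, GRCh38) had 136.7, 138.8 and 142.3 CPM in control and 171.8, 168.7 and 169.7 CPM in 4HC. It rose in every treated sample relative to every control, by 0.29 on the log2 scale (SE 0.037, adjusted p = 8.2e-09). Of the pair's summed TPM, IDH2 held 71.9% ± 0.79 in control and 79.7% ± 0.11 in 4HC, a pair that was set side by side after its values had been seen. The mitochondrial NAD-linked enzyme, made of IDH3A, IDH3B and IDH3G, did not pass in any of its 3 subunits, with log2 fold changes from 0.038 to 0.076.

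CS, citrate synthase, fell by 8.51% with 296.8, 296.5 and 307.9 CPM in control and 279.9, 268.4 and 276.1 CPM in 4HC (SE of the log2 fold change 0.0335, adjusted p = 0.00189). MDH1, the cytosolic malate dehydrogenase and the most abundant gene of the group per length, had 255.2, 248.5 and 250 CPM in control and 260.4, 268.9 and 276.7 CPM in 4HC, a rise of 0.097 on the log2 scale (adjusted p = 0.0217). MDH2, its mitochondrial counterpart, fell by 6.05% (adjusted p = 0.0342), with 242.3 to 252.3 CPM in control and 229.7 to 237.7 CPM in 4HC. These 3 changes were small but free of overlap between the groups, and the calls of MDH1 and MDH2 were each lost in 6 of 14 alternative analyses. The remaining genes of the cycle, OGDH and DLST of the oxoglutarate dehydrogenase complex, the succinyl-CoA ligase subunits SUCLA2, SUCLG1 and SUCLG2, and fumarase (FH), had log2 fold changes from -0.068 to 0.049 and did not pass.

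Of the 39 members with several transcripts, the leading transcript's share did not overlap between the groups in 4 (10.3%), beside 12.3% of all such genes tested. OGDH, named after its values were seen, was among them: its leading transcript took 53.3%, 54.1% and 55.4% of the gene's counts in control and 62.0%, 70.3% and 57.2% in 4HC, a difference that was not tested. Of the 48 genes, 9 were represented by 1 transcript and 24 had only 1 transcript above 5% of their counts. In LDHA, LDHB and MDH1, a pair of transcripts held equal counts, so that reads could not be told apart between them.

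Of the 5 pentose phosphate genes, 2 were lower (40.0%) and 3 did not pass, beside 17.1% lower among all genes tested. RPIA, which interconverts ribose and ribulose phosphates, had 43.76, 38.77 and 47.96 CPM in control and 37.48, 40.21 and 40.09 CPM in 4HC. The groups overlapped, and the log2 fold change of -0.15 (SE 0.06, adjusted p = 0.0464) lost its call in 9 of 14 alternative analyses. RPE, the epimerase beside it, fell by 7.55% (adjusted p = 0.0371) and lost its call in 8 of 14. TALDO1, transaldolase and the most abundant of the 5 per length, had 156.3, 144.3 and 152.5 CPM in control and 162.9, 159.4 and 156.8 CPM in 4HC, and did not pass (log2 fold change 0.081, adjusted p = 0.0923). TKT and PGLS did not pass either (0.007 and 0.125, adjusted p = 0.904 and 0.0631).

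**Figure D4:**
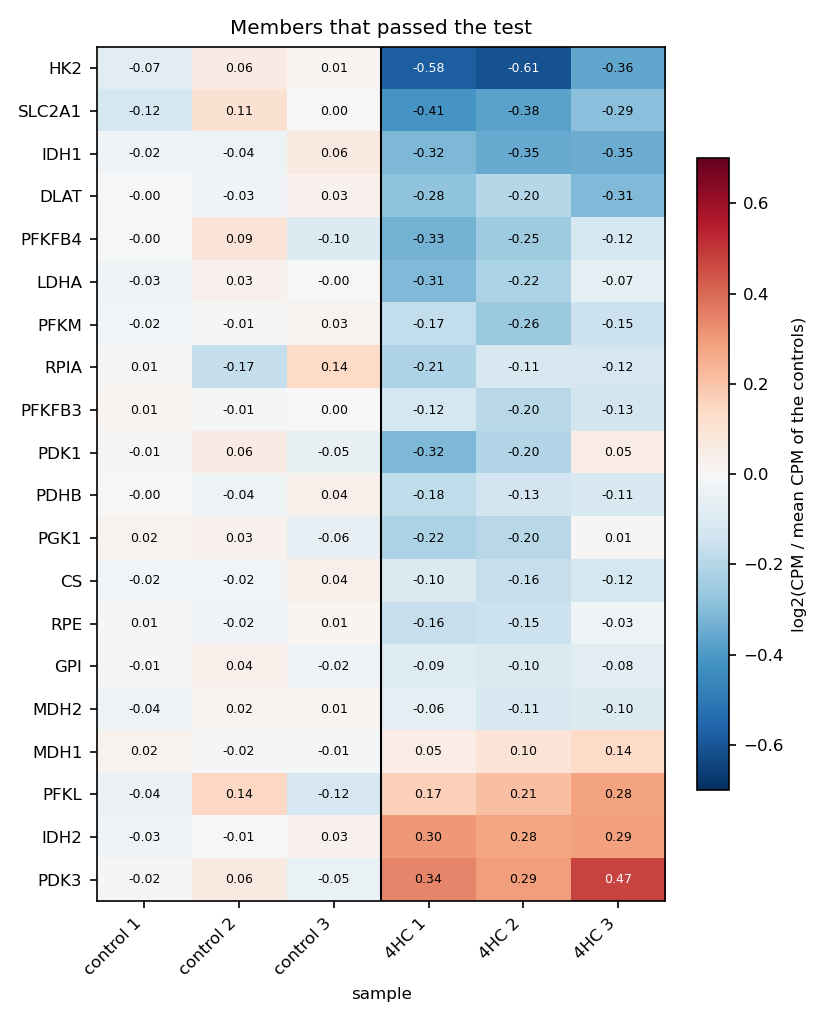
Log2 ratio of each sample's CPM to the mean of the controls for the 20 genes that passed the test, with genes as rows and the 6 samples as columns. IDH1 and IDH2 are near even across the treated samples, while LDHA, PGK1 and PDK1 lie closer to 0 in 4HC replicate 3 than in the other treated samples.

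The treated samples differed among themselves. Replicate 3 was the highest of the 3 for 24 of the 48 members, replicate 1 for 17 and replicate 2 for 7, beside 34.8%, 32.9% and 32.3% of all genes tested. Replicate 2 was the lowest for 21 members, replicate 1 for 17 and replicate 3 for 10, beside 29.6%, 36.2% and 34.2% of all genes. Without replicate 3 the log2 fold changes were -0.26 for LDHA (adjusted p = 9.74e-10), -0.21 for PGK1 (adjusted p = 1.28e-06), -0.26 for PDK1 (adjusted p = 9.93e-06), -0.59 for HK2 (adjusted p = 2.14e-17) and 0.32 for PDK3 (adjusted p = 4.69e-07). SLC2A3 then passed, at -0.15 (adjusted p = 0.00704), and MDH1 no longer did, at 0.075 (adjusted p = 0.125). What lay behind these differences between treated samples was not tested.

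Across families of related enzymes, 28 shares of summed TPM were computed in 12 families, and 13 of them, in 7 families, did not overlap between the groups. In the 8 families of 2 genes the shares mirror each other, so that both shares of a pair are the same observation. An exact two-sided permutation test on 3 samples against 3 cannot go below p = 0.1, and that value was reached by the shares of HK1, HK2, PFKL, PFKM, PDK1, PDK3, PFKFB2, SLC2A1 and SLC2A3, with 0.215 after Benjamini-Hochberg adjustment over the 28. The remaining 4 of the 13 belong to the pairs IDH1 with IDH2 and MDH1 with MDH2, which were both set side by side after their values had been seen. As summed TPM, the hexokinases fell from 52.22 to 44.27 on average, while the PDK family stood at 70.49 and 71.01. ALDOA made up 99.6% and 99.7% of the aldolase pair and ENO1 99.9% of the enolase pair in both groups.

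**Figure D5:**
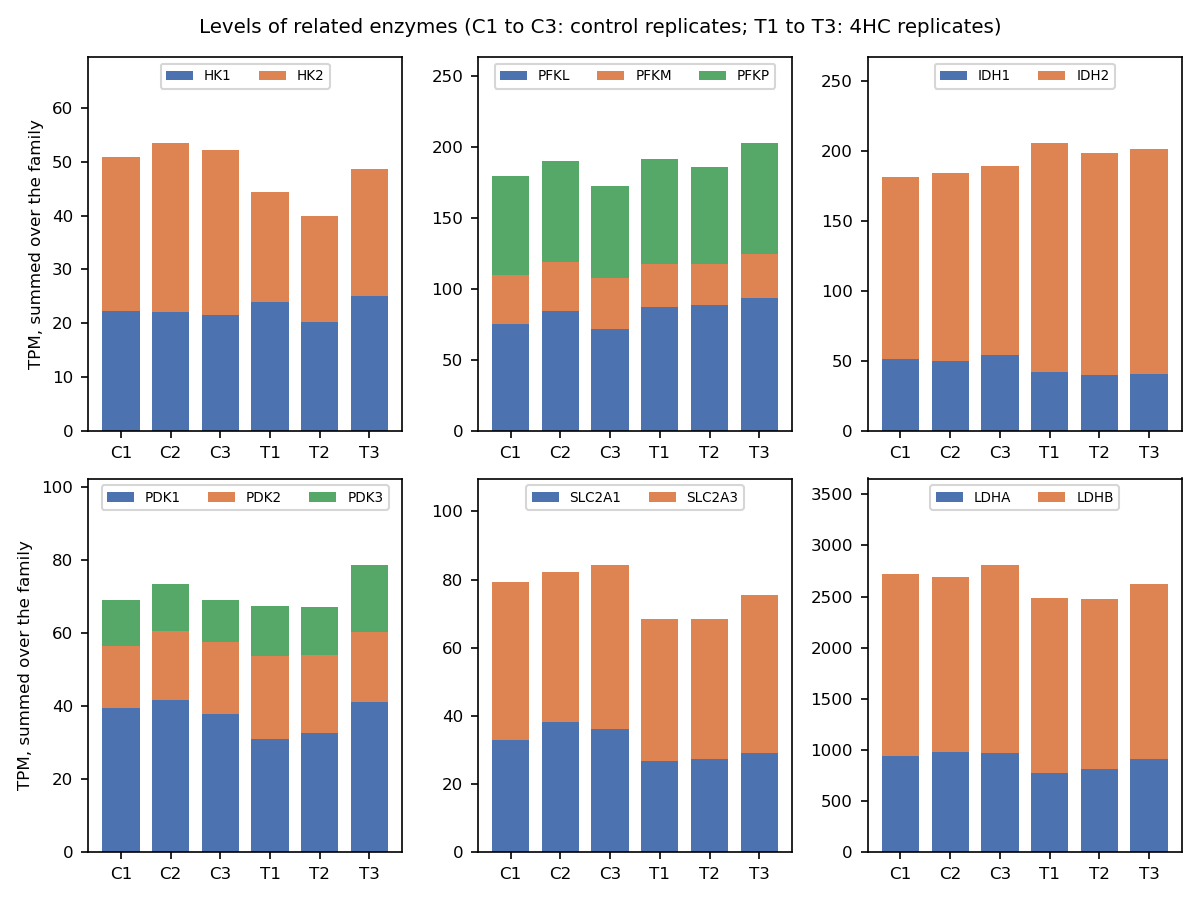
TPM of related enzymes stacked per sample for 6 families (vertical axes from 0; C1 to C3 are the controls and T1 to T3 the 4HC samples). The HK2 part of the hexokinase bar shrinks from 57.9% on average in control to 47.9% in 4HC, and the IDH2 part of the isocitrate dehydrogenase bar grows from 71.9% to 79.7%.

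Many glycolytic genes are known targets of the hypoxia factor HIF, whose core binding motif is ACGTG, and of MYC, which binds the palindrome CACGTG. Both motifs were counted in windows of 250 bases upstream of listed starts (RefSeq, GRCh38.p14), and a gene could have several starts. Windows were given for 45 of the 48 members, 73 in all, and not for OGDH, PFKFB2 and SLC2A3. A gene counted as a match when any of its windows held the motif, so genes with more windows had more room for a match. The 45 members had 73 windows, and the 27305 genes with a window had 35116, so the shares below are not strictly comparable. ACGTG on either strand stood upstream of 20 members, 44.4% of the 45, beside 28.8% of the tested genes with a window and 21.7% of all genes with one. It stood upstream of 10 of the 16 members that fell (62.5%), 1 of the 4 that rose (25.0%) and 9 of the 25 that did not pass (36.0%). CACGTG stood upstream of 8 of the 45 members (17.8%), 4 of the 16 that fell (25.0%), 0 of the 4 that rose and 4 of the 25 that did not pass (16.0%), beside 11.3% of the tested genes and 7.73% of all genes. Each CACGTG also counts as an ACGTG match on both strands, so the motifs overlap, and a match is a description of the letters only. For HK2, LDHA and PDHB, 1 window each is printed because these genes fell and held the most matches, with ACGTG and its reverse complement CACGT in capitals. HK2 and LDHA had 2 windows each, and the window with more matches is printed. The other window held 2 ACGTG matches for HK2 and 0 for LDHA. The printed HK2 window lies inside the span of the gene, upstream of an inner start. The printed windows lie at chr2:74834920-74835169 on the plus strand, chr11:18394313-18394562 on the plus strand and chr3:58433833-58434082 on the minus strand, and hold 4, 5 and 3 matches.
HK2: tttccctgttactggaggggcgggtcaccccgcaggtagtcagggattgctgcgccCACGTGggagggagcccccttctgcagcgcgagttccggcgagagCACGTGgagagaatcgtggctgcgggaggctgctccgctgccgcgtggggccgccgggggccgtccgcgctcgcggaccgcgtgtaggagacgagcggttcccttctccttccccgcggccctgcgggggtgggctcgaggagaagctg
LDHA: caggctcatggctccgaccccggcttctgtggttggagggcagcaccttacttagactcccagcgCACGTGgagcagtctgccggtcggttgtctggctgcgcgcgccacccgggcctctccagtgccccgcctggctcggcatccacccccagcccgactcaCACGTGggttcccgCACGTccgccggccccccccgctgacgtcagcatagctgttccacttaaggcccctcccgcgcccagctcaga
PDHB: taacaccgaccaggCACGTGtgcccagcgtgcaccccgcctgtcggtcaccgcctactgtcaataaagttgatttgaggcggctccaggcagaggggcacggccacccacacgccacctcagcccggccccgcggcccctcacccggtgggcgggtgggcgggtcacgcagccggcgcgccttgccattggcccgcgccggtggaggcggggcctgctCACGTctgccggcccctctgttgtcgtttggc

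Another 8 lists hold further genes of the same pathways, their regulators, HIF targets outside them and p53 targets. Of 71 tested genes in these lists, 12 were higher (16.9%) and 15 lower (21.1%), beside 19.2% and 17.1% of all genes tested. The counts per list below stand beside the same 2 shares of all genes. TIGAR, a phosphatase that lowers fructose bisphosphate and turns glucose towards the pentose phosphate pathway, had 120.3, 111.2 and 118.6 CPM in control and 151.2, 154.6 and 152.0 CPM in 4HC. It rose by 0.39 on the log2 scale (SE 0.0392, adjusted p = 1.1e-11), opposite to PFKFB3 and PFKFB4. BPGM, which turns the bisphosphoglycerate used by PGK1 into another form, fell by 0.26 (adjusted p = 1.13e-09). PCK2, the mitochondrial enzyme that makes phosphoenolpyruvate, rose by 0.39 (adjusted p = 0.00765) at 6.278 to 9.234 CPM. Of 9 tested genes in this list of other glycolytic and gluconeogenic enzymes, 3 were higher and 2 lower.

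Of 10 other sugar and lactate transporters tested, 7 did not pass and 3 were lower, namely SLC2A13 (-0.23, adjusted p = 0.00672), SLC2A6 (-0.21, adjusted p = 0.0119) and SLC16A1, the lactate carrier MCT1 (-0.17, adjusted p = 3.34e-04). At pyruvate dehydrogenase, 1 of 5 was higher and 1 lower. PDP2, a phosphatase that reactivates the complex, had 81.29, 78.41 and 82.47 CPM in control and 64.34, 64.75 and 66.53 CPM in 4HC. Its fall of 0.31 on the log2 scale (SE 0.0454, adjusted p = 2.15e-07) ran opposite to the rise of the kinase PDK3. Another kinase, PDK1, fell. PDPR, a regulatory subunit of the phosphatase PDP1, rose by 0.20 (adjusted p = 1.7e-04). PDP1 itself did not pass, at 0.74 to 1.602 CPM. Of 11 other TCA and anaplerotic genes, 2 were higher and 3 lower. SDHA, the catalytic subunit of succinate dehydrogenase, rose by 0.35 (adjusted p = 6.88e-12). By contrast, ACLY, which cleaves citrate in the cytosol to acetyl-CoA for lipid synthesis, fell by 0.24 (adjusted p = 2.13e-07). The malic enzyme ME2 fell by 0.19 (adjusted p = 3.15e-05).

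Of 7 other pentose phosphate genes, 0 passed by edgeR, by DESeq2 or by limma on log2(TPM + 1), and 1 had an unadjusted p under 0.05, PRPS2, which makes the ribose donor of nucleotides (log2 fold change -0.089, adjusted p = 0.0758). Of 13 regulators tested, 10 did not pass and 3 were lower. MYC, which drives glycolytic genes, had 166.6, 171.1 and 171.9 CPM in control and 140.9, 136.8 and 139.7 CPM in 4HC. It fell by 0.29 on the log2 scale (adjusted p = 9.25e-09) with no overlap, and ARRDC4 and the HIF hydroxylase EGLN1 fell by 0.20 and 0.17 (adjusted p = 0.00701 and 0.00272). HIF1A mRNA did not pass (-0.055, adjusted p = 0.308); HIF is controlled largely at the protein level, which was not measured here. Among 11 HIF targets outside the pathways, 2 were higher and 3 lower, led by P4HA2, a collagen hydroxylase (0.54, adjusted p = 2.85e-10), VEGFA (-0.26, adjusted p = 6e-06) and PPFIA4 (0.25, adjusted p = 0.0436). The median log2 fold change of the 11 was -0.114, and 8 of them lay below 0, beside 0.005 and 6069 of the 12368 genes tested. Of the 11, 6 did not pass. The called shares were 18.2% higher and 27.3% lower, beside 19.2% and 17.1% of all genes tested. PPFIA4 lost its call in 7 of 14 alternative analyses, DESeq2 among them (adjusted p = 0.188), and its log2 fold change was 0.12 without 4HC replicate 3 (adjusted p = 0.402). As a reference for the size of the response, 4 of 5 tested p53 targets were higher, among them MDM2 (0.98) and SESN1 (0.88), with CDKN1A at 220.3, 233 and 220.6 CPM in control and 799.7, 786 and 764 CPM in 4HC, a log2 fold change of 1.80 (SE 0.0334, adjusted p = 2.56e-42).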

How the data were processed

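Bulk RNA sequencing of COV434 cells was analysed in 3 control and 3 4HC samples, grouped by title. Per the labels, the authors filtered reads with SOAPnuke and analysed them on the Dr. Tom system, and the submitters' processing notes name HISAT2, Bowtie2, RSEM 1.3.1, DESeq2 1.4.5 and GRCh38.p13. The authors deposited expected counts per gene and per transcript without normalization, and TPM values scaled to length and to a fixed sum per sample. They also deposited FPKM values scaled to length and library size, which served here only as an alternative for the shares within families. RSEM divides reads shared between copies by estimation, so near-identical genes are less certain. Whether strand was used in counting is not given in the sources used here. Columns of the authors' own comparison (fold change, p-value and q-value) were not used, nor was a second gene table that repeats the first.

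Expected counts were rounded and tested with the edgeR 4.0.16 quasi-likelihood test in R 4.3.3 (TMM normalization, filterByExpr, condition as the only term), with Benjamini-Hochberg adjustment over all 12368 genes that passed the filter and 0.05 as the threshold. CPM values use TMM library sizes. The common biological coefficient of variation was 0.0277. Totals were 16133786 to 16702316 per sample, so that depth limited only the lowest members, such as ENO2. Simulated counts with 198 changed genes among 12286 gave 90.9% recovered at a log2 change of 0.5 and 100% at 1.5, and 5.03% of 199 calls were unchanged genes. Smaller changes were not simulated. The median absolute log2 change of the 48 members was 0.092, so these recovery rates do not apply to most of them. Replicates differed beyond counting noise (chi-square per gene 1.7 to 2.46). Shares within families and PKM isoforms used exact two-sided permutation tests. Alternatives were DESeq2 1.42.0, its size factors, library size only, no filter, a minimum of 10 counts, limma 3.58.1 on log2(TPM + 1) and log2(TPM + 0.1), a replicate block, and leaving out each sample.

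The members and lists were chosen with earlier results of these data known. Values per sample are given for the 14 members with the largest change among those that passed and for the most abundant member of each group (PGK1 and CS were added), and up to 3 genes with the largest change among those that passed are named per related list, with TIGAR, HIF1A, MYC and CDKN1A. The other members are given by their change or range. SLC2A10, PGK2, PGAM2, PKLR, FBP1, PCK1, TXNIP and GLS2 were not analysed here, and some results on other genes are not reported here.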

Additional observations from a re-analysis of the deposited data

How the results depend on the processing

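Over 14 alternative analyses, 11 of the 20 members that passed kept their call in all of them and 9 lost it in at least 1 (GPI, PGK1, PFKFB3, PDK1, PDK3, MDH1, MDH2, RPIA and RPE). Of the 28 that did not pass, 10 passed somewhere, and no direction reversed among the called members. With library size only, 9 members were higher, of which 4 in glycolysis and 2 in the pentose phosphate pathway, and 0 pentose phosphate members were lower. With either limma analysis of TPM, 2 members were higher, 0 at pyruvate entry and 1 in the TCA cycle, and 0 pentose phosphate members were lower. DESeq2 found 1 PFKFB member, 2 lactate dehydrogenase members and 0 pentose phosphate members lower. Same-numbered samples correlated at 0.00866, 0.0694 and 0.0302 in their deviations from the group means. Differently numbered samples were not set beside them, so these values cannot decide whether the numbers pair the samples. With the replicate block, 4 members were higher and 13 lower, with 1 lower in the pentose phosphate pathway, and the calls of PDK1, MDH2 and RPIA were lost.

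Leaving out each sample in turn, members higher ranged from 3 to 7 and members lower from 9 to 16. The 7 came without control replicate 2, where GAPDH, ALDOA, TPI1 and PFKP passed, and the 9 without 4HC replicate 2. By group, the ranges were 1 to 2 lower in glucose import, 1 to 5 higher and 2 to 4 lower in glycolysis, 1 to 2 lower in PFKFB, 1 to 2 lower in lactate dehydrogenase, 1 to 2 higher in the TCA cycle, and 0 to 1 higher and 0 to 2 lower in the pentose phosphate pathway. Among the related genes named, SLC2A6, SLC2A13, PCK2, ARRDC4, BNIP3 and PPFIA4 lost their call without at least 1 of the samples. The cause of these differences was not tested.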

Other observations

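BNIP3, BNIP3L and P4HA1, picked from the HIF targets outside the 48 after their values had been seen, also stood high in 4HC replicate 3. BNIP3, a mitophagy receptor, had 77.86, 83.68 and 103.4 CPM in the 4HC samples beside 94.84 to 104.7 CPM in control, and its log2 fold change was -0.16 with all samples (edgeR adjusted p = 0.0174) and -0.29 without that replicate (adjusted p = 1.18e-06). BNIP3L had 85.34, 92.44 and 113.2 CPM in 4HC beside 92.25 to 96.87 CPM in control. P4HA1 had 63.92, 66.97 and 78.59 CPM in 4HC beside 75.05 to 76.18 CPM in control. In all 3 genes, as in LDHA, PGK1 and PDK1, replicate 3 was the highest of the treated samples, as it was for 34.8% of all genes tested. It was also the highest treated sample in VEGFA and MXI1 of the same list, but there it lay below every control. VEGFA had 71.92 CPM in it beside 81.63 to 85.06 CPM in control, and MXI1 43.03 CPM beside 46.64 to 49.54 CPM. What these genes share in that sample was not tested.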
